A study of Mus musculus with 8 samples.

Results

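The genes described here are 38 chaperones and chaperonin subunits of the mouse, read as 38 rows of a count table of 24421 gene symbols. They were listed by name, with no threshold on their values, but with earlier results of these data known. They were placed in 8 classes: 7 heat-inducible genes, 7 of the cytosolic HSP70 system, 5 of HSP90 and its co-chaperones, 8 CCT chaperonin subunits, 4 prefoldin subunits, 4 mitochondrial chaperones, 2 chaperones of the endoplasmic reticulum (ER), and the transcription factor gene Hsf1. RNA was sequenced from C57BL/6 bone marrow cells that carried MLL-AF10, a leukaemia fusion, in 4 groups of 2 libraries. MATIP cells also carried Tip60 flox/flox and Cre-ERT2, a recombinase that is active in the presence of 4-hydroxytamoxifen (4-OHT), and were kept either in 100 nM 4-OHT or in its ethanol control (EtOH) during 4 days. MAflox cells, labelled MLL-AF10 flox, received the same 4-OHT or EtOH for 4 days. Whether MAflox cells carried Cre-ERT2 is not in the labels. Nor do the labels tie the libraries of 1 group to different cultures, and p-values therefore measure only how these libraries vary, which may be technical. The medium, shared by all 4 groups, was methylcellulose with the cytokines GM-CSF, IL-3 and SCF.

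Chaperones bind proteins that are not yet folded or have lost their fold. The HSP70 proteins bind short exposed stretches with the help of J-domain proteins and exchange factors, HSP90 takes over client proteins such as kinases and steroid receptors, and the ring-shaped CCT complex folds actin and tubulin that prefoldin hands to it. Mitochondria and the ER hold sets of their own, and heat shock factor 1 (HSF1) binds heat shock elements in the promoters of many cytosolic and mitochondrial members when misfolded protein accumulates. Growing progenitor and leukaemia cells are known to express these genes strongly, since they make much new protein.

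The 8 libraries held 41101309 to 57312490 counts and 14380 to 15822 detected genes. Values are given as CPM, the count of a gene over the library total and scaled to a common total, after scaling of the libraries with TMM factors. Kat5, the gene that encodes TIP60, had 8.11 and 8.32 CPM in MATIP 4-OHT libraries, against 41.1 and 41.2 CPM in MATIP EtOH libraries. It had 57.5 and 62.5 CPM in MAflox 4-OHT libraries, against 43.7 and 41.2 CPM in MAflox EtOH libraries, so it was low in the 2 MATIP 4-OHT libraries alone.

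Treatment with 4-OHT was followed by lower levels of most chaperone genes in both lines, and the median fall was larger in MATIP cells for every class but the heat-inducible one. Of the 38 genes 37 had enough counts to be tested with edgeR's quasi-likelihood test, in which a gene was called at an adjusted p (Benjamini-Hochberg over 13722 genes) under 0.05. In MATIP cells 33 of the 37 fell, 0 rose and 4 did not pass the test (median log2 fold change -1.18). At an unadjusted p under 0.05 in edgeR the number that rose was again 0, and with DESeq2, at an adjusted p under 0.05, it was 2 (Bag3 and Pfdn5). Of all tested genes 76.1% were called in MATIP cells, 38.6% lower and 37.5% higher, and their median was 0.00. In MAflox cells 30 of the 37 fell, 3 rose and 4 did not pass (median -0.46), where 65.2% of all tested genes were called, 32.1% lower and 33.1% higher, with a median of 0.02. A fall of 2-fold or more was called for 21 of 37 members in MATIP cells, where 14.1% of all tested genes fell by as much, and for 5 of 37 in MAflox cells, where 8.29% did. In these bulk samples, fewer cells of a type and less RNA per cell cannot be told apart.

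The difference of the responses, the log2 fold change in MATIP cells minus that in MAflox cells, was tested in the same fit. It was negative and passed the test for 33 of 37 members, was positive and passed for Hspa1a and Bag3, and did not pass for Hspa1b and Hsf1. Its median was -0.64, against -0.03 over all tested genes, of which 61.9% were called, 33.6% with a negative and 28.3% with a positive difference. A total of 28 members fell in both lines, and for 27 of these the difference was negative and called. The share of all tested genes with this joint pattern was not counted. Both 4-OHT libraries lay below both EtOH libraries for 33 members in MATIP cells and for 31 in MAflox cells. The same count was not made over all tested genes, so it cannot be read as particular to the members.

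**Figure D1:**
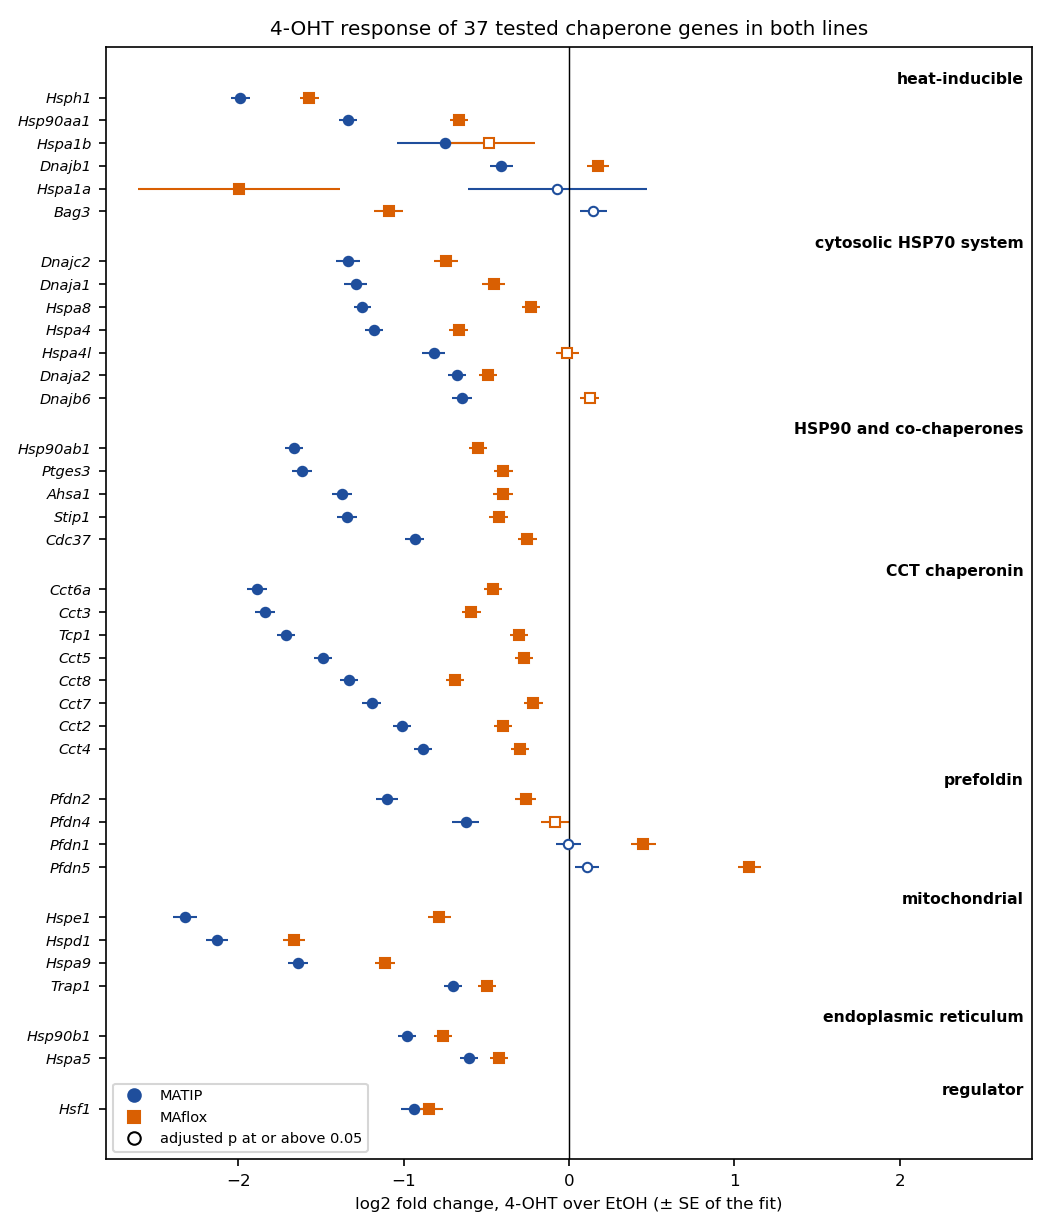
Log2 fold change of 4-OHT over EtOH for the 37 tested genes, by class, in MATIP cells (circles) and MAflox cells (squares); bars are the standard error of the fit and open symbols had an adjusted p at or above 0.05. Most circles lie left of the squares, Bag3 and Hspa1a are the members whose circle lies right of the square with a called difference, and Pfdn5 is the member with the largest rise, 1.09 in MAflox cells.

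Markers of mature cells moved with treatment in both lines. The summed level of 10 mature neutrophil genes was 33616 and 37169 CPM in MATIP 4-OHT libraries, against 731 and 868 CPM in MATIP EtOH libraries, and 49095 and 52502 CPM in MAflox 4-OHT libraries, against 209 and 204 CPM in MAflox EtOH libraries. All 10 rose in each line. The summed level of 10 monocyte and macrophage genes was 11636 and 12209 CPM in MATIP 4-OHT libraries, against 425 and 416 CPM in MATIP EtOH libraries, and 5056 and 5254 CPM in MAflox 4-OHT libraries, against 305 and 323 CPM in MAflox EtOH libraries, with 9 of 9 tested members rising in MATIP cells, 8 in MAflox cells, and C1qa at 0 in every library. The 6 progenitor genes summed to 347 and 342 CPM in MATIP 4-OHT libraries, against 772 and 769.7 CPM in MATIP EtOH libraries, and to 463 and 465 CPM in MAflox 4-OHT libraries, against 821 and 848 CPM in MAflox EtOH libraries. Of these 6 genes 4 fell and Kit rose in MATIP cells (median -1.23), and 5 fell and Kit did not pass in MAflox cells (median -1.84), and the difference of the responses was positive and called for 5 of 6 (median 1.26). The starting levels differed, since in EtOH 3 of the 6 were called lower in MATIP than in MAflox cells and 2 higher (median -1.57). The part of these markers in the chaperone results was not tested. Erythroid markers summed to at most 1.44 CPM and lymphoid markers to at most 0.853 CPM, with Hbb-bs, Hba-a1, Cd3e and Ncr1 among those at 0 in every library. The stromal markers summed to at most 7.495 CPM, with Dcn at 0, and the mast cell and basophil markers to at most 32.7 CPM.

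The heat-inducible genes, which HSF1 is known to switch on under heat, moved in different directions. In MATIP cells 4 of 6 tested members fell and 0 rose (median -0.58; 1 rose with DESeq2), and in MAflox cells 4 fell and Dnajb1 rose (median -0.88). The difference of the responses was negative and called for Hsph1, Dnajb1 and Hsp90aa1 and positive and called for Hspa1a and Bag3. Promoters of 3 of these genes are shown because Hsph1 fell in both lines while Bag3 and Hspa1a fell in MAflox cells alone by the test, in the RefSeq sequence of GRCm38.p6 from 250 bases before to 50 after the annotated start, with pairs of facing heat shock units (GAANNTTC or TTCNNGAA, read on both strands, overlapping runs joined) in capitals.
Hsph1: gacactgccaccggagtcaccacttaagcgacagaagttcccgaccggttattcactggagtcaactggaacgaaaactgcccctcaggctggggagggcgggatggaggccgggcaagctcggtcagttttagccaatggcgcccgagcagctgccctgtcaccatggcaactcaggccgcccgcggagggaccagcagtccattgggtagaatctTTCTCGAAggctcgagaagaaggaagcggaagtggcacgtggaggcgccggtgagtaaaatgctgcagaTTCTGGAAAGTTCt
Bag3: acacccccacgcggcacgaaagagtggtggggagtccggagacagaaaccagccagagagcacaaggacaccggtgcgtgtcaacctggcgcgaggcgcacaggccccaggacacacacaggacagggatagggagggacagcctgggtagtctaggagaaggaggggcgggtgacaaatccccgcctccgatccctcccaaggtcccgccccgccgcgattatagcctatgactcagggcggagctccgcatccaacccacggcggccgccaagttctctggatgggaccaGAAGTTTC
Hspa1a: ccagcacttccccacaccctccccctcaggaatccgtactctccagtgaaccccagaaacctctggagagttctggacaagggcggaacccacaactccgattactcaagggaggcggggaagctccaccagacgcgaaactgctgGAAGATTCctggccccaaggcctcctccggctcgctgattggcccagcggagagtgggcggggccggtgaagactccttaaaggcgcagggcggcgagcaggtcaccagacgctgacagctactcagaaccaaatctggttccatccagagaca
The Hsph1 window is chr5:149636287-149636586 on the minus strand, the Bag3 window chr7:128523333-128523632 on the plus strand and the Hspa1a window chr17:34972107-34972406 on the minus strand. RefSeq promoter entries were matched for 30 of the 38 members. A gene may have several entries. The paired unit was found in at least 1 entry of 13 of these 30 genes, 5 of the 6 heat-inducible genes among them, and of 17.0% of all 27025 genes. Per entry it was found in 15 of 39 of the members, of which those of Hspd1 and Hspe1 share bases, and in 15.1% of all 32851, and a run of 3 units (GAANNTTCNNGAA or TTCNNGAANNTTC), which contains the pair, was found in Hsph1, Dnajb6, Hspd1 and Hspe1 and in 0.662% of all genes. In the windows shown, the pairs begin 33 bases before and 36 and 41 after the annotated start in Hsph1, and 104 before it in Hspa1a. The Bag3 pair begins 42 bases after the start and ends at the window edge, so a unit beyond it could not be seen. A match describes letters in a window and does not show that HSF1 binds there.

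Hsph1, which encodes HSP110, an exchange factor for HSP70, had 75.8 and 75.3 CPM in MATIP 4-OHT libraries, against 309.7 and 289.6 CPM in MATIP EtOH libraries. It had 69.7 and 71.0 CPM in MAflox 4-OHT libraries, against 213 and 205 CPM in MAflox EtOH libraries. The 4-OHT libraries of both lines were low and close to each other, with no overlap with EtOH libraries, while the MATIP EtOH libraries were the highest. Hsph1 fell by 1.99 ± 0.06 (SE) on the log2 scale in MATIP cells (edgeR adjusted p = 2.42e-16) and by 1.57 ± 0.06 in MAflox cells (edgeR adjusted p = 2.14e-14), and the difference of these responses was -0.42 ± 0.08 (edgeR adjusted p = 0.000173).

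Bag3, a co-chaperone that links HSP70 to autophagy, had 46.9 and 43.9 CPM in MATIP 4-OHT libraries, against 40.4 and 41.6 CPM in MATIP EtOH libraries. It had 19.0 and 15.9 CPM in MAflox 4-OHT libraries, against 37.7 and 36.9 CPM in MAflox EtOH libraries. Only the MAflox 4-OHT libraries were low, and they did not overlap with any other group. The log2 fold change was 0.15 ± 0.08 in MATIP cells (edgeR adjusted p = 0.114) and -1.09 ± 0.09 in MAflox cells (edgeR adjusted p = 1.9e-09), and the difference was 1.24 ± 0.12 (edgeR adjusted p = 4.21e-08). The MATIP value passed the test at 0.18 without MAflox 4-OHT library 1 (edgeR adjusted p = 0.0327) or library 2 (0.0329), and at 0.22 with DESeq2's size factors in edgeR (adjusted p = 0.0243).

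Dnajb1, a J-domain partner of HSP70, was the member called in opposite directions in the 2 lines. It had 49.7 and 48.3 CPM in MATIP 4-OHT libraries, against 63.6 and 66.5 CPM in MATIP EtOH libraries. It had 74.96 and 80.9 CPM in MAflox 4-OHT libraries, against 66.3 and 71.5 CPM in MAflox EtOH libraries. Neither pair of groups overlapped. Dnajb1 fell by 0.41 ± 0.07 on the log2 scale in MATIP cells (edgeR adjusted p = 1.93e-05), and its value in MAflox cells was 0.18 ± 0.07 (edgeR adjusted p = 0.0253). The MAflox call was lost without MAflox 4-OHT library 2 (0.14, edgeR adjusted p = 0.139), without MAflox EtOH library 1 (0.12, edgeR adjusted p = 0.227) and with library totals in place of TMM factors (0.00, edgeR adjusted p = 0.973). The difference of the responses, -0.59 ± 0.09 (edgeR adjusted p = 2.43e-05), was called under every alternative tried.

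Hsp90aa1, the inducible cytosolic HSP90, had 752 and 784 CPM in MATIP 4-OHT libraries, against 2000.4 and 1881 CPM in MATIP EtOH libraries, and fell by 1.34 ± 0.06 on the log2 scale (edgeR adjusted p = 4.27e-14). In MAflox cells it fell by 0.66 ± 0.05 (edgeR adjusted p = 2.47e-09). The pair of inducible HSP70 genes were near the limit of detection. Hspa1a had 18 and 37 counts in MATIP 4-OHT libraries, against 32 and 32 counts in MATIP EtOH libraries, and 6 and 12 counts in MAflox 4-OHT libraries, against 27 and 52 counts in MAflox EtOH libraries. The MAflox 4-OHT counts were the lowest and the MATIP groups overlapped. The Hspa1a log2 fold change was -0.07 ± 0.54 in MATIP cells (edgeR adjusted p = 0.91) and -1.998 ± 0.61 in MAflox cells (edgeR adjusted p = 0.00747), and the difference was 1.93 ± 0.82 (edgeR adjusted p = 0.0488). The Hspa1a call in MAflox cells was lost without MAflox 4-OHT library 1 (-1.53, edgeR adjusted p = 0.075) or MAflox EtOH library 2 (-1.61, edgeR adjusted p = 0.0855). Its difference was lost without any 1 of 5 libraries: MAflox 4-OHT library 1 (1.496, edgeR adjusted p = 0.155), MAflox EtOH library 2 (1.52, adjusted p = 0.201), MATIP 4-OHT library 2 (1.498, adjusted p = 0.202) and MATIP EtOH library 1 (2.11, adjusted p = 0.0642) or 2 (1.73, adjusted p = 0.125). It was also lost with DESeq2 (adjusted p = 0.0701) and after removal of the trend of fold change on transcript length and GC (1.75, edgeR adjusted p = 0.0748).

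Hspa1b had 0.996 and 1.48 CPM in MATIP 4-OHT libraries, against 2.22 and 1.99 CPM in MATIP EtOH libraries, and fell by 0.75 ± 0.29 on the log2 scale (edgeR adjusted p = 0.0246). This call was lost without MATIP 4-OHT library 1 (-0.47, edgeR adjusted p = 0.227) or MATIP EtOH library 1 (-0.68, edgeR adjusted p = 0.078), and with DESeq2 (adjusted p = 0.0725). In MAflox cells its log2 fold change was -0.48 ± 0.28 (edgeR adjusted p = 0.133). Hspa1a and Hspa1b are near copies, and 58.8% of the 50-base stretches of Hspa1a also occur in Hspa1b, so how reads were divided between them is uncertain. Hspb1, the small heat shock protein HSP27, was not tested, with 2 and 11 counts in MATIP 4-OHT libraries, 0 and 0 in MATIP EtOH libraries, 0 and 3 in MAflox 4-OHT libraries and 0 and 2 in MAflox EtOH libraries.

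**Figure D2:**
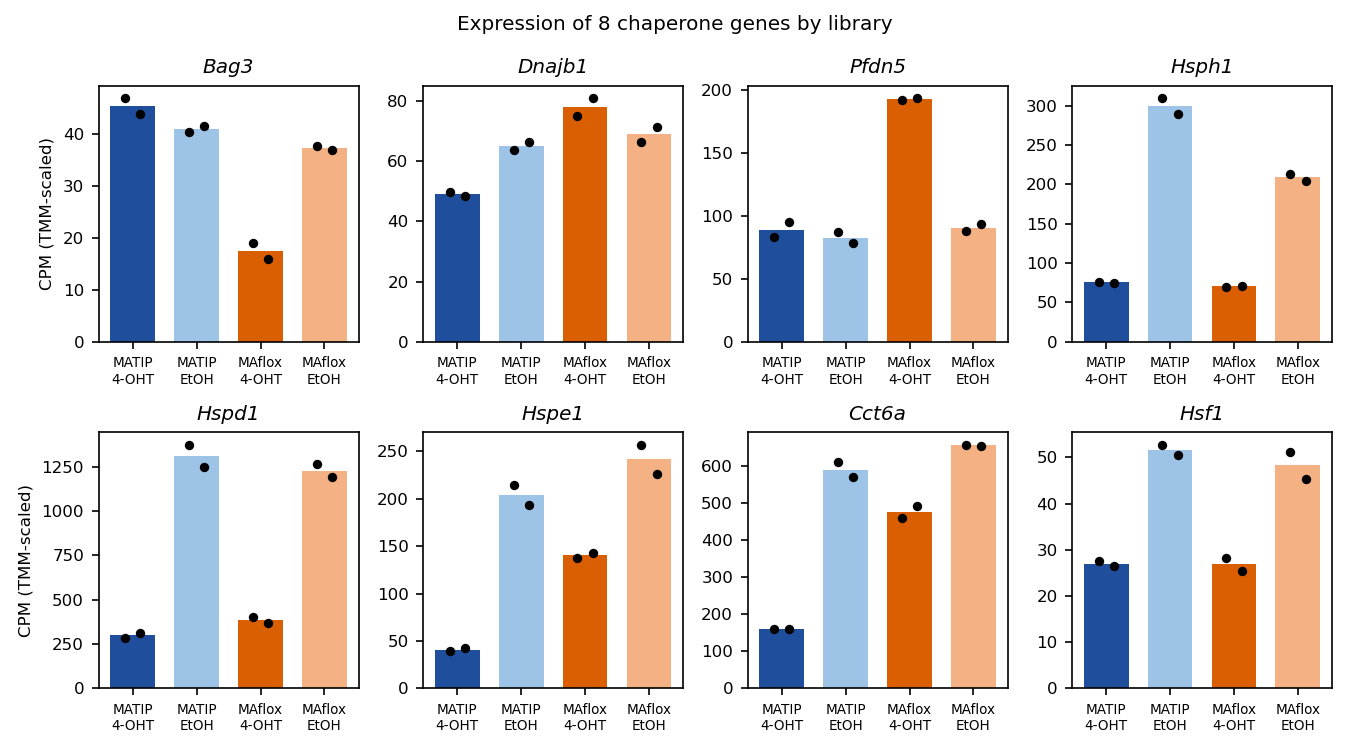
CPM of 8 genes in each library (points) with the mean of each group (bars, n = 2); all axes start at 0. MAflox 4-OHT libraries stand apart from the other 3 groups for Bag3 (15.9 and 19.0 CPM) and Pfdn5 (192 and 193 CPM), and both 4-OHT groups lie below both EtOH groups for Hsph1, Hspd1, Hspe1, Cct6a and Hsf1.

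All 7 genes of the cytosolic HSP70 system fell in MATIP cells (median -1.18), and 5 of 7 fell and 0 rose in MAflox cells (median -0.46; 1 rose at an unadjusted p in edgeR and 0 with DESeq2). The difference was negative and called for 7 of 7. Hspa8, the constitutive HSP70 (HSC70), had 1481 and 1489.9 CPM in MATIP 4-OHT libraries, against 3622 and 3446 CPM in MATIP EtOH libraries. It had 2541 and 2632 CPM in MAflox 4-OHT libraries, against 2993 and 3072 CPM in MAflox EtOH libraries. The EtOH groups of both lines were high, and the MATIP 4-OHT libraries lay well below the MAflox 4-OHT libraries. Hspa8 fell by 1.25 ± 0.05 on the log2 scale in MATIP cells (edgeR adjusted p = 5.86e-14) and by 0.23 ± 0.05 in MAflox cells (edgeR adjusted p = 0.000706), with a difference of -1.02 ± 0.07 (edgeR adjusted p = 6.89e-10).

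Dnajc2, a J-domain protein that works at the ribosome (MPP11), had the largest fall of the class in both lines. It had 71.8 and 79.6 CPM in MATIP 4-OHT libraries, against 205 and 178 CPM in MATIP EtOH libraries. In MAflox cells it had 123 and 122 CPM in 4-OHT libraries, against 216 and 193 CPM in EtOH libraries. Groups did not overlap in either line, and Dnajc2 fell by 1.34 ± 0.07 on the log2 scale in MATIP cells (edgeR adjusted p = 4.07e-12) and by 0.75 ± 0.07 in MAflox cells (edgeR adjusted p = 3.18e-08). Hspa4, an exchange factor, fell by 1.18 and 0.67 in MATIP and MAflox cells on the log2 scale, Dnaja1 by 1.29 and 0.46, and Dnaja2 by 0.68 and 0.49. Hspa4l, a relative of Hspa4, fell by 0.82 ± 0.07 in MATIP cells (edgeR adjusted p = 2.62e-09), and its value in MAflox cells was -0.01 ± 0.07 (edgeR adjusted p = 0.907). That Hspa4l value was called at 0.49 with the length and GC trend removed (edgeR adjusted p = 5.73e-06) and at -0.18 with library totals in place of TMM factors (edgeR adjusted p = 0.0275). Dnajb6, a J-domain protein known to hold back aggregation, fell by 0.65 ± 0.06 in MATIP cells (edgeR adjusted p = 5.05e-09), and its value in MAflox cells was 0.13 ± 0.06 (edgeR adjusted p = 0.0603). That Dnajb6 value passed the test without MATIP 4-OHT library 1 (0.14, edgeR adjusted p = 0.0457) or library 2 (0.14, edgeR adjusted p = 0.045). The difference for Dnaja2, -0.18 ± 0.08 (edgeR adjusted p = 0.0438), was negative and called in 1 of 15 alternatives, that without MATIP EtOH library 2. It turned to a called 0.19 (edgeR adjusted p = 0.04) after removal of the trend of fold change on transcript length and GC.

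HSP90 and its co-chaperones all fell in both lines, 5 of 5 in each, with a median of -1.37 in MATIP cells and -0.40 in MAflox cells, and the difference was negative and called for 5 of 5. Hsp90ab1, the constitutive cytosolic HSP90, had 1682 and 1729 CPM in MATIP 4-OHT libraries, against 5452 and 5366 CPM in MATIP EtOH libraries. It had 3734 and 4012 CPM in MAflox 4-OHT libraries, against 5627 and 5722 CPM in MAflox EtOH libraries. MATIP 4-OHT libraries were the lowest, MAflox 4-OHT libraries intermediate and the EtOH libraries of both lines highest. Hsp90ab1 fell 3.17-fold in MATIP cells (log2 -1.67 ± 0.05, edgeR adjusted p = 1.1e-15) and 1.47-fold in MAflox cells (log2 -0.55 ± 0.05, edgeR adjusted p = 2.22e-08). The difference was -1.11 ± 0.07 (edgeR adjusted p = 2.46e-10). Ptges3, which encodes the co-chaperone p23, fell by 1.62 on the log2 scale in MATIP cells and by 0.40 in MAflox cells. Stip1 (HOP), which joins HSP70 to HSP90, fell by 1.34 in MATIP cells and 0.43 in MAflox cells, and Ahsa1, which activates the HSP90 ATPase, by 1.37 and 0.40. Cdc37, which delivers kinases to HSP90, fell by 0.93 in MATIP cells and by 0.25 in MAflox cells, but its MAflox value turned to 0.33 with the length and GC trend removed.

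All 8 CCT subunits fell in both lines, with a median of -1.41 in MATIP cells and -0.35 in MAflox cells, and the difference was negative and called for 8 of 8 under every alternative tried. Cct6a, one of the 8 kinds of subunit in the ring, had 159.6 and 160.1 CPM in MATIP 4-OHT libraries, against 611 and 572 CPM in MATIP EtOH libraries. It had 462 and 494 CPM in MAflox 4-OHT libraries, against 659 and 656 CPM in MAflox EtOH libraries. The MATIP 4-OHT libraries were low and apart from the other 3 groups, and the MAflox 4-OHT libraries lay below both EtOH groups. Cct6a fell by 1.89 ± 0.06 on the log2 scale in MATIP cells (edgeR adjusted p = 4.84e-16) and by 0.46 ± 0.06 in MAflox cells (edgeR adjusted p = 5.78e-07), and the difference was -1.43 ± 0.08 (edgeR adjusted p = 2.17e-11).

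Tcp1, which encodes the subunit CCT1, had 184 and 189.6 CPM in MATIP 4-OHT libraries, against 625 and 599 CPM in MATIP EtOH libraries. It had 555 and 578 CPM in MAflox 4-OHT libraries, against 707 and 689 CPM in MAflox EtOH libraries. Tcp1 fell by 1.71 ± 0.06 on the log2 scale in MATIP cells and by 0.30 ± 0.05 in MAflox cells, and the difference of -1.41 ± 0.08 (edgeR adjusted p = 1.47e-11) came close to that of Cct6a. Cct8 had the largest fall of the class in MAflox cells, with 424 and 419 CPM in 4-OHT libraries, against 689 and 672 CPM in EtOH libraries (log2 -0.69 ± 0.05, edgeR adjusted p = 1.44e-09). In MATIP cells Cct8 had 254 and 267 CPM in 4-OHT libraries, against 674 and 636 CPM in EtOH libraries (log2 -1.33 ± 0.06, edgeR adjusted p = 4.81e-14). The subunits of this 1 complex therefore spread over 0.88 to 1.89 log2 units of fall in MATIP cells, where Cct4 fell least, and over 0.22 to 0.69 in MAflox cells, where Cct7 fell least.

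Prefoldin stood apart from the other classes in MAflox cells. Of the 4 subunits among the 38 genes 2 fell and 0 rose in MATIP cells (median -0.31; 1 rose with DESeq2), while 1 fell and 2 rose in MAflox cells (median 0.18), and the difference was negative and called for 4 of 4. Pfdn5, also known as the MYC-binding protein MM-1, had 82.8 and 95.2 CPM in MATIP 4-OHT libraries, against 86.8 and 78.6 CPM in MATIP EtOH libraries. It had 192 and 193 CPM in MAflox 4-OHT libraries, against 87.7 and 93.4 CPM in MAflox EtOH libraries. The MAflox 4-OHT libraries alone were high, and the MATIP groups overlapped. Pfdn5 rose 2.13-fold in MAflox cells (log2 1.09 ± 0.07, edgeR adjusted p = 6.8e-11), its value in MATIP cells was 0.11 ± 0.07 (edgeR adjusted p = 0.169), and the difference was -0.98 ± 0.10 (edgeR adjusted p = 6.53e-08). The MATIP value passed the test at 0.24 without MATIP 4-OHT library 1 (edgeR adjusted p = 0.00968) and at 0.18 with DESeq2's size factors in edgeR (adjusted p = 0.0267).

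Pfdn1 had 57.5 and 65.6 CPM in MATIP 4-OHT libraries, against 66.0 and 57.6 CPM in MATIP EtOH libraries. It had 87.2 and 90.5 CPM in MAflox 4-OHT libraries, against 66.2 and 64.1 CPM in MAflox EtOH libraries. The rise in MAflox cells was 0.45 ± 0.08 on the log2 scale (edgeR adjusted p = 3.2e-05). Pfdn2 had 53.5 and 55.4 CPM in MATIP 4-OHT libraries, against 121 and 113 CPM in MATIP EtOH libraries, and 79.7 and 77.0 CPM in MAflox 4-OHT libraries, against 97.9 and 90.3 CPM in MAflox EtOH libraries. It fell by 1.10 ± 0.06 in MATIP cells (edgeR adjusted p = 8.59e-12) and by 0.26 ± 0.06 in MAflox cells (edgeR adjusted p = 0.00129). Pfdn4 fell by 0.63 ± 0.08 in MATIP cells, and its value in MAflox cells was -0.09 ± 0.08 (edgeR adjusted p = 0.384). With the length and GC trend removed, the prefoldin median in MAflox cells turned to -0.36, Pfdn1 to -0.07, Pfdn4 to -0.81 and the Pfdn4 difference to 0.22, while Pfdn5 stayed higher at 0.61. The Pfdn1 difference then did not pass (-0.07, edgeR adjusted p = 0.612), so that the difference was negative and called for Pfdn2 and Pfdn5 alone.

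The mitochondrial chaperones had the lowest median of the classes in both lines. All 4 fell in each, with a median of -1.89 in MATIP cells and -0.95 in MAflox cells, and the difference was negative and called for 4 of 4. Hspd1 (HSP60) and Hspe1 (HSP10) form the chaperonin of the matrix and lie head to head on chromosome 1. The promoter window of Hspe1 shares 285 bases with one of Hspd1, so 1 sequence is shown for both, with its overlapping pairs of heat shock units in capitals (RefSeq, GRCm38.p6, chr1:55087898-55088197, plus strand).
Hspe1: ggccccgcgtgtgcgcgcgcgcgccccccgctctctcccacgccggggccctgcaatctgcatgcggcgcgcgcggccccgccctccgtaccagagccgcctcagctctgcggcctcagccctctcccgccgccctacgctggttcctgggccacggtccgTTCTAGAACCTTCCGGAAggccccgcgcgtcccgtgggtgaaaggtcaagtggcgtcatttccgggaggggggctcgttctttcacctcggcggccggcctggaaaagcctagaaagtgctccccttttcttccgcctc
The first pair begins 89 bases before the annotated start of Hspe1.

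Hspd1 had 286 and 313 CPM in MATIP 4-OHT libraries, against 1375 and 1248 CPM in MATIP EtOH libraries. It had 405 and 371 CPM in MAflox 4-OHT libraries, against 1265 and 1192 CPM in MAflox EtOH libraries. Both 4-OHT groups were low and neither overlapped with its EtOH group. Hspd1 fell 4.38-fold in MATIP cells (log2 -2.13 ± 0.07, edgeR adjusted p = 7.5e-16) and 3.17-fold in MAflox cells (log2 -1.66 ± 0.07, edgeR adjusted p = 6.49e-14), with a difference of -0.47 ± 0.09 (edgeR adjusted p = 0.000204).

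Hspe1 had 39.3 and 42.2 CPM in MATIP 4-OHT libraries, against 215 and 194 CPM in MATIP EtOH libraries. It had 138 and 143 CPM in MAflox 4-OHT libraries, against 257 and 226 CPM in MAflox EtOH libraries. Here the MATIP 4-OHT libraries alone were very low, and the MAflox 4-OHT libraries lay between. Hspe1 had the largest fall of all 37 genes in MATIP cells (log2 -2.32 ± 0.07, edgeR adjusted p = 7.38e-16), fell by 0.78 ± 0.07 in MAflox cells (edgeR adjusted p = 6.12e-09), and had the most negative difference, -1.54 ± 0.10 (edgeR adjusted p = 1.47e-10). The Hspe1 value in MAflox cells was -1.45 with the length and GC trend removed. Hspa9 (mortalin), the mitochondrial HSP70, had 239 and 256 CPM in MATIP 4-OHT libraries, against 797 and 745 CPM in MATIP EtOH libraries, and 371 and 348 CPM in MAflox 4-OHT libraries, against 784 and 772 CPM in MAflox EtOH libraries. It fell by 1.64 ± 0.06 in MATIP cells and by 1.11 ± 0.06 in MAflox cells. Trap1, the mitochondrial HSP90, fell by 0.70 and 0.49 in the 2 lines, and its difference of -0.21 ± 0.08 (edgeR adjusted p = 0.025) was lost in 11 of 15 alternatives.

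The 2 ER chaperones fell in both lines (median -0.79 in MATIP cells and -0.59 in MAflox cells). The unfolded protein response is known to act on their promoters through the ER stress element (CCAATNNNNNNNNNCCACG). This element was found, on either strand, in Hspa5 and Hsp90b1 and in none of the other 28 members with a promoter entry, and in 0.137% of all genes, and it is in capitals in both sequences (RefSeq, GRCm38.p6).
Hspa5: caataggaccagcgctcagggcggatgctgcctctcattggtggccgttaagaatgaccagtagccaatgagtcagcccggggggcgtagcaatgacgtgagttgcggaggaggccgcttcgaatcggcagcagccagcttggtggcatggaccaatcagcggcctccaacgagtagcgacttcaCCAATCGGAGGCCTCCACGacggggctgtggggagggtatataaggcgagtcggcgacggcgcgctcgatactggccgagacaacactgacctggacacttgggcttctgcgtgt
Hsp90b1: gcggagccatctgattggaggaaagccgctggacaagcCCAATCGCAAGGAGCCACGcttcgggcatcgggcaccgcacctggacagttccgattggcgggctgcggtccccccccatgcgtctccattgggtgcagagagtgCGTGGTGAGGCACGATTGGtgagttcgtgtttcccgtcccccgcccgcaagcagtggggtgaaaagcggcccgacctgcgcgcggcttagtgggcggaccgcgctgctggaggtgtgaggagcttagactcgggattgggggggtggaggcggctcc
The windows are chr2:34771840-34772139 on the plus strand and chr10:86705395-86705694 on the minus strand, and the elements begin 65 bases before the start in Hspa5 and 212 and 107 bases before it in Hsp90b1.

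Hsp90b1 (GRP94), the ER form of HSP90, had 1177 and 1224 CPM in MATIP 4-OHT libraries, against 2430.1 and 2299 CPM in MATIP EtOH libraries. It had 1209 and 1253 CPM in MAflox 4-OHT libraries, against 2102 and 2076 CPM in MAflox EtOH libraries. The 4-OHT libraries of the 2 lines were at nearly the same level, and the EtOH libraries were higher in MATIP than in MAflox cells. Hsp90b1 fell by 0.98 ± 0.05 on the log2 scale in MATIP cells (edgeR adjusted p = 3.23e-12) and by 0.76 ± 0.05 in MAflox cells (edgeR adjusted p = 2.58e-10). Hspa5 (BiP), the ER form of HSP70, had 1605 and 1658 CPM in MATIP 4-OHT libraries, against 2524 and 2438 CPM in MATIP EtOH libraries, and fell by 0.60 ± 0.05 in MATIP cells and by 0.42 ± 0.05 in MAflox cells. The differences were small, at -0.21 for Hsp90b1 (edgeR adjusted p = 0.0189) and -0.18 for Hspa5 (edgeR adjusted p = 0.0435). They were lost or turned in 8 and 14 of 15 alternatives, and Hsp90b1 turned to 0.13 with the length and GC trend removed.

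Hsf1 itself had 27.6 and 26.4 CPM in MATIP 4-OHT libraries, against 52.7 and 50.6 CPM in MATIP EtOH libraries. It had 28.2 and 25.4 CPM in MAflox 4-OHT libraries, against 51.2 and 45.4 CPM in MAflox EtOH libraries. The 4-OHT libraries of both lines overlapped with each other and lay apart from the EtOH libraries. Hsf1 fell by 0.94 ± 0.08 on the log2 scale in MATIP cells (edgeR adjusted p = 3.72e-09) and by 0.85 ± 0.08 in MAflox cells (edgeR adjusted p = 2.77e-08). The difference of the responses was -0.09 ± 0.12 (edgeR adjusted p = 0.525), with a sign that depended on the library left out (-0.19 to 0.02).

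The 38 genes together took 1.04% and 1.057% of counts in MATIP 4-OHT libraries, against 2.83% and 2.71% in MATIP EtOH libraries, and 1.69% and 1.74% in MAflox 4-OHT libraries, against 2.78% and 2.752% in MAflox EtOH libraries. The sum of CPM in 4-OHT libraries was 0.415 times that in EtOH libraries for MATIP cells and 0.699 times for MAflox cells. By class, the smallest ratio was that of the mitochondrial genes, 0.288 in MATIP cells and 0.423 in MAflox cells. The CCT subunits had ratios of 0.3801 and 0.760, and the HSP90 class 0.336 and 0.702. The ratios were close between the lines for the ER class, with 0.584 in MATIP cells and 0.666 in MAflox cells, and for Hsf1, with 0.523 in MATIP cells and 0.555 in MAflox cells. Prefoldin was the class whose sum was higher with 4-OHT in one line, with 387 and 391 CPM in MAflox 4-OHT libraries, against 285 and 277 CPM in MAflox EtOH libraries, and 219 and 243 CPM in MATIP 4-OHT libraries, against 314 and 289 CPM in MATIP EtOH libraries.

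**Figure D3:**
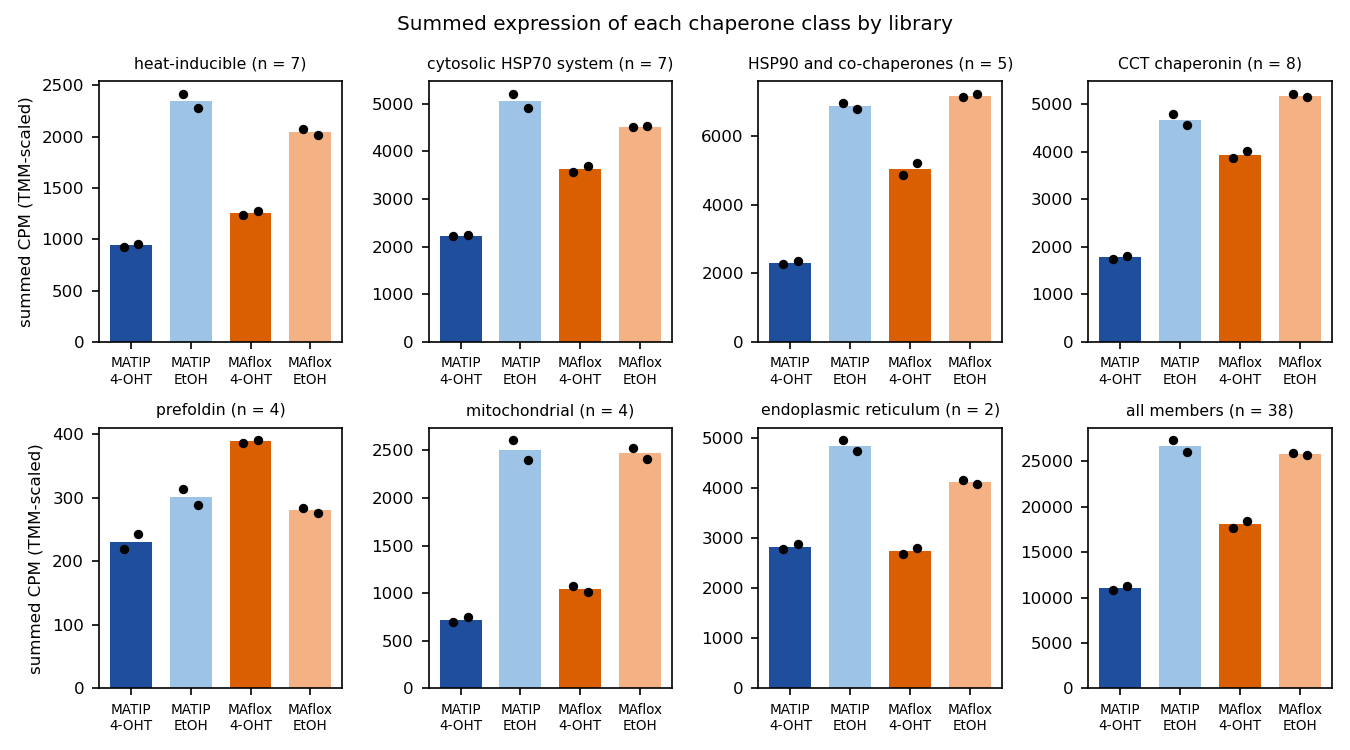
Summed CPM of the genes of 7 classes and of all 38 members in each library (points) with group means (bars, n = 2). MATIP 4-OHT libraries hold the lowest sum in every panel but the ER one, where the 4-OHT groups of the 2 lines overlap, and MAflox 4-OHT libraries hold the highest prefoldin sum (387 and 391 CPM).

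Levels were also set against exon length, as CPM per kb of merged exons, to order the genes within a library group. In MATIP EtOH libraries Hsp90ab1 was the most abundant member at a mean of 1804 CPM per kb, followed by Hspa8 at 822, Hspa5 at 587, Hsp90b1 at 586, Hspd1 at 496 and Hsp90aa1 at 494. The CCT subunits, which enter each ring in equal number, had levels of 74.9 for Cct7 to 253 CPM per kb for Cct5. This spread depends on the merged exon length, which was 6778 bases for Cct7 and 2766 for Cct5. Without division by length their means were 508 and 701 CPM. Dnajb1 had a level of 20.3 CPM per kb, Bag3 16.0 and Hsf1 7.28, and the inducible HSP70 genes Hspa1b and Hspa1a were last among the tested genes at 0.751 and 0.208 CPM per kb. The counted level of the constitutive Hspa8 was thus far above that of its inducible relatives in MATIP EtOH libraries. How far is uncertain, since the treatment of reads with several matches is not known. Of the 50-base stretches of Hspa1a 66.3% occur in other genes, of Hspa1b 62.3% and of Hspa8 52.7%.

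Ratios of these levels within partner genes changed with treatment and line. The ratio of inducible Hsp90aa1 to constitutive Hsp90ab1 was 0.341 and 0.346 in MATIP 4-OHT libraries, against 0.280 and 0.267 in MATIP EtOH libraries. In MAflox cells it was 0.219 and 0.210 in 4-OHT libraries, against 0.237 and 0.226 in EtOH libraries, so the ratio moved up in one line and down in the other, with no overlap in either. The ratio of Hspd1 to Hspe1, which share a promoter region, was 4.06 and 4.13 in MATIP 4-OHT libraries, against 3.57 and 3.60 in MATIP EtOH libraries. In MAflox cells it was 1.64 and 1.45 in 4-OHT libraries, against 2.74 and 2.94 in EtOH libraries. The trend of fold change on transcript length and GC was not removed from these ratios. Its removal made the fall of Hspe1 in MAflox cells larger, as given above. The exchange factor Hsph1 over Hspa8 had ratios of 0.0303 and 0.0299 in MATIP 4-OHT libraries, against 0.0506 and 0.0497 in MATIP EtOH libraries, and 0.0162 and 0.0160 in MAflox 4-OHT libraries, against 0.0421 and 0.0395 in MAflox EtOH libraries. It was lower with 4-OHT in both lines. The Hsp90b1 to Hspa5 ratio was also lower with 4-OHT in both, at 0.769 and 0.774 in MATIP 4-OHT libraries, against 1.01 and 0.989 in MATIP EtOH libraries, and 0.861 and 0.844 in MAflox 4-OHT libraries, against 1.07 and 1.09 in MAflox EtOH libraries. No test was made on these ratios, and with 2 libraries against 2 an exact permutation test could not reach 0.05.

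**Figure D4:**
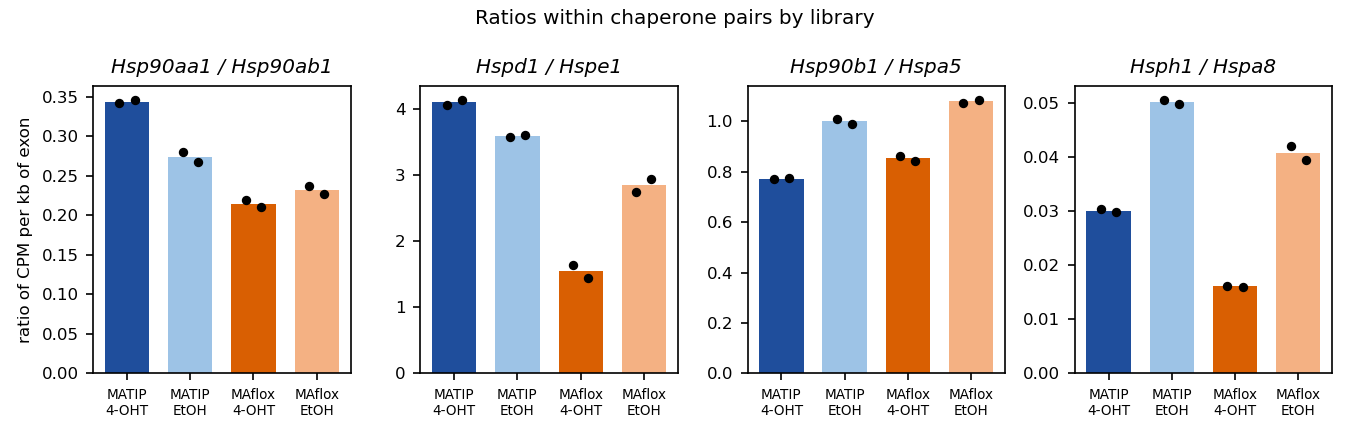
Ratio of CPM per kb of exon within 4 pairs of chaperone genes, per library (points) with group means (bars, n = 2); axes start at 0. Hsp90aa1 over Hsp90ab1 and Hspd1 over Hspe1 are higher with 4-OHT in MATIP cells and lower in MAflox cells, and the other 2 ratios are lower with 4-OHT in both lines. The trend of fold change on transcript length and GC was not removed from the ratios.

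The wider folding network, 83 cofactors that are not among the 38 genes, moved less uniformly. Of 79 tested, 51 fell and 13 rose in MATIP cells (median -0.40), where 38.6% of all tested genes fell and 37.5% rose. In MAflox cells 36 fell and 23 rose (median -0.13), where 32.1% of all tested genes fell and 33.1% rose. The difference was negative and called for 42 and positive and called for 13. Ppid, which encodes the HSP90-binding cyclophilin 40, had 34.8 and 32.2 CPM in MATIP 4-OHT libraries, against 217 and 198 CPM in MATIP EtOH libraries (log2 -2.63 ± 0.07, edgeR adjusted p = 2.75e-17). Fkbp4, another HSP90-binding immunophilin, fell by 2.42 ± 0.06 in MATIP cells and by 0.84 ± 0.05 in MAflox cells. Among 22 J-domain and HSP70 cofactors 14 fell and 5 rose in MATIP cells. In MAflox cells 10 of the 22 fell and 6 rose, beside the 32.1% of all tested genes that fell and the 33.1% that rose. Bag2 fell by 2.59 ± 0.09 in MATIP cells and by 0.88 ± 0.08 in MAflox cells, St13 (HIP) by 1.68 ± 0.06 in MATIP cells and Bag6 by 0.87 ± 0.06 in MAflox cells. Among mitochondrial cofactors and proteases 10 of 12 fell in MATIP cells and 0 rose (also 0 at an unadjusted p in edgeR and with DESeq2), with the protease subunit Clpp at -1.88 ± 0.09 and the J-domain gene Dnaja3 at -1.06 ± 0.06. In MAflox cells 4 fell and 3 rose, which is near the shares of all tested genes, with the protease Lonp1 at -0.66 ± 0.07 and Dnajc15 at 0.48 ± 0.07.

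Among 17 tested ER folding genes 14 fell and 3 rose in each line. Of all tested genes 38.6% fell and 37.5% rose in MATIP cells, and 32.1% fell and 33.1% rose in MAflox cells. Sdf2l1 and the disulphide isomerase Pdia6 fell by 1.65 ± 0.06 and 1.61 ± 0.05 on the log2 scale in MATIP cells, and the J-domain gene Dnajc10 and the exchange factor Hyou1 by 1.27 ± 0.06 and 0.99 ± 0.05 in MAflox cells. Dnajb9 (ERdj4) went the other way and had the largest rise of that list in both lines, with 146 and 142 CPM in MATIP 4-OHT libraries, against 31.0 and 37.5 CPM in MATIP EtOH libraries, and 69.9 and 73.7 CPM in MAflox 4-OHT libraries, against 28.5 and 29.1 CPM in MAflox EtOH libraries (log2 2.07 ± 0.08 and 1.32 ± 0.08). It was named after its values were seen, as was Dnaja4, a J-domain gene with 8.11 and 7.61 CPM in MATIP 4-OHT libraries, against 1.89 and 2.18 CPM in MATIP EtOH libraries (log2 1.94 ± 0.22, edgeR adjusted p = 1.22e-07). Of 9 partners of CCT and prefoldin 4 fell and 1 rose in MATIP cells, with Pfdn6, a prefoldin subunit that is not among the 38 genes, at -0.95 ± 0.09 and Uri1 at -0.40 ± 0.06. The remaining prefoldin subunit, Vbp1, fell by 0.21 ± 0.06 in MATIP cells and rose by 0.28 ± 0.06 in MAflox cells. With Pfdn6 and Vbp1 added, 4 of 6 prefoldin subunits fell in MATIP cells and 3 of 6 rose in MAflox cells, Pfdn1 among them. The Pfdn1 rise in MAflox cells was lost with the length and GC trend removed (-0.07), and Pfdn4 then fell there (-0.81). Of the 9 partners 1 fell and 4 rose in MAflox cells, with the phosducin-like genes Pdcl3 at 0.46 ± 0.08 and Pdcl at 0.38 ± 0.07. Beside the shares of all tested genes, the falls in MATIP cells and the rises in MAflox cells cannot be read as particular to these partners. Hsf2, another heat shock factor, fell by 0.52 ± 0.10 in MAflox cells, where the HSF-binding protein gene Hsbp1 rose by 0.72 ± 0.06, and Hsf4 rose by 1.94 ± 0.35 in MATIP cells. Of 5 genes listed by symbol as small heat shock proteins 2 were tested, of which Hspb6 fell by 1.74 ± 0.18 in MATIP cells and Hspb11 rose by 2.13 ± 0.45 in MAflox cells. The Hspb11 counts were low, at 83 and 67 in MAflox 4-OHT libraries, against 20 and 16 in MAflox EtOH libraries.

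In EtOH alone the members differed little between the 2 lines. MATIP libraries were higher than MAflox libraries for 8 of 37 members and lower for 7 (median -0.03), where 32.0% of all tested genes were called, 20.3% higher and 11.7% lower, and no member differed 2-fold. Hspa4l (0.65 ± 0.07, edgeR adjusted p = 6.03e-07) and Hsph1 (0.52 ± 0.06, edgeR adjusted p = 6.25e-07) had the largest differences among called members, followed by Pfdn4 (0.39), Pfdn2 (0.31) and Hspa5 (0.29). Of the 7 lower members 6 were CCT subunits, at -0.15 to -0.19, and the other was Hspe1 at -0.24. The 8 higher calls went to 5 without MAflox EtOH library 1. The 7 lower calls went to 0 without MAflox EtOH library 1 or without MATIP EtOH library 2, and to 2 without MAflox EtOH library 2.

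Some members share sequence with other genes, and how the counting treated such reads and the strand was not stated in the sources used here. For 11 members over 20% of the 50-base stretches of the longest transcript occurred in other genes, among them Hsp90aa1 (58.5%), Hspa8 (52.7%), Hspd1 (44.8%) and Dnajb6 (42.8%), and their values are uncertain to that extent. Exons of 16 members overlapped those of another gene. The largest overlaps by share were Pfdn2 with Klhdc9 (27.6% of its exon bases, opposite strand), Pfdn4 with Gm16796 (25.4%, opposite strand) and Hspa1a with Gm20481 (19.0%, opposite strand), and Hspd1 and Hspe1 shared 112 bases on opposite strands. Pfdn5, the member with the largest rise, overlapped Myg1 on the same strand (11.8% of its exon bases). Of its 50-base stretches 27.05% occurred in other genes. For MATIP cells the authors' deposited table gives 32 members as lower and 0 as higher, and for MAflox cells 30 as lower and 3 as higher, at an adjusted p under 0.05. The call in the authors' deposited table was the same as in the edgeR fit for 36 and 37 of the 38 members in MATIP and MAflox cells, with Hspa1b and the untested Hspb1 apart in MATIP cells and Hspb1 apart in MAflox cells.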

How the data were processed

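Sequencing counts came from 8 libraries, 2 in each of 4 groups, grouped and numbered by the sample titles. The authors deposited unnormalized whole-number read counts per gene symbol. The submitters' processing notes name mm10, featureCounts 1.6.4, HISAT2 2.1.0, Trimmomatic 0.38.0 and DESeq2. For the strand setting, the annotation and the treatment of reads with several matches, values were not given in the sources used here. Each filled count column belongs to a sample (0 do not), and 23 columns are empty. A further deposited table holds log2 fold changes and adjusted p-values of the authors, per the file headers.

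Of 24421 symbols 17831 had a count, and 13722 passed filterByExpr by group (minimum count 10, minimum total 15). The test was edgeR 4.0.16 quasi-likelihood (R 4.3.3) on all 8 libraries with TMM scaling and a coefficient per group (4 residual and 14.3 prior degrees of freedom, common BCV 5.98%). Benjamini-Hochberg adjustment was made within each contrast, with calls at 0.05. The standard error is the size of the log2 fold change over the square root of F. The scripts were tested on simulated counts. The chi-square of 2 replicates was 7.17 to 13.3 times its degrees of freedom, so no pair was counted as 1 sample.

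Exon lengths, GC content and shared 50-base stretches come from GENCODE M21, promoters from RefSeq (GRCm38.p6). A length and GC trend was fitted across tested genes and removed as an alternative. Alternatives also covered DESeq2 1.42.0, its size factors (RLE) in edgeR, no filter on low counts, the compared libraries alone, leaving out each library, and a replicate block. Library totals in place of TMM were added after seeing the data. Members and lists were chosen with earlier results of these data known. Genes given in full are, per class, the largest rise and fall in each line, genes called in opposite directions, and the largest differences of the responses in each direction. Network genes named are the 2 called ones with the smallest p of each list and line, some of which are not reported here.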

Additional observations from a re-analysis of the deposited data

Results flagged for a closer look

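For 35 of the 37 tested genes the 4-OHT response differed between the 2 lines, by edgeR's test of the difference itself (log2 response in MATIP cells minus that in MAflox cells, adjusted p under 0.05). Of all tested genes 61.9% passed the same test. The difference was positive for Hspa1a at 1.93 and Bag3 at 1.24. In MAflox cells both of these genes fell, and in MATIP cells neither passed the test. The other heat-inducible genes had differences of -0.42 for Hsph1, -0.59 for Dnajb1 and -0.67 for Hsp90aa1. In the cytosolic HSP70 system the difference was -1.02 for Hspa8, -0.51 for Hspa4, -0.81 for Hspa4l, -0.83 for Dnaja1, -0.18 for Dnaja2, -0.77 for Dnajb6 and -0.59 for Dnajc2. Among HSP90 genes it was -1.11 for Hsp90ab1, -0.92 for Stip1, -0.98 for Ahsa1, -0.68 for Cdc37 and -1.22 for Ptges3. The CCT subunits had differences of -1.41 for Tcp1, -0.61 for Cct2, -1.25 for Cct3, -0.59 for Cct4, -1.22 for Cct5, -1.43 for Cct6a, -0.98 for Cct7 and -0.64 for Cct8. Prefoldin subunits had -0.45 for Pfdn1, -0.84 for Pfdn2, -0.54 for Pfdn4 and -0.98 for Pfdn5. The mitochondrial genes had -0.53 for Hspa9, -0.21 for Trap1, -0.47 for Hspd1 and -1.54 for Hspe1, and the ER genes -0.18 for Hspa5 and -0.21 for Hsp90b1.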

How the results depend on the processing

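With the length and GC trend removed, 5 members rose in MAflox cells in place of 3. In MATIP cells, where 0 members rose, 2 rose with RLE size factors, 2 with DESeq2 and 1 with the compared libraries alone, and 0 to 2 when a library was left out. The difference was positive and called for 1 member in place of 2 with DESeq2 and, without a library, for 1 to 2. With the replicate block it was positive and called for 1 member in place of 2, alone or with the length and GC trend removed. With the block alone it was negative and called for 31 in place of 33. With the length and GC trend removed, Dnaja2, Pfdn1, Pfdn4, Trap1, Hspa5 and Hsp90b1 no longer had a negative called difference. In EtOH, 5 to 8 members were higher in MATIP than in MAflox and 0 to 8 lower when a library was left out. Without a library, 29 to 30 members fell in MAflox cells, 32 to 33 in MATIP cells, and 29 to 33 had a negative called difference. Values that reversed, all with the length and GC trend removed (alone, or with the replicate block), were, in MAflox cells, Hspa4l (0.487, 0.485), Cdc37 (0.334, 0.333) and Pfdn1 (-0.075, -0.076), and, for the difference, Dnaja2 (0.191, 0.194), Pfdn4 (0.222, 0.224) and Hsp90b1 (0.134, 0.138). The cause was not tested. Same-numbered libraries did not deviate together (r = -0.004 in MAflox and -0.061 in MATIP cells). These correlations cannot show whether same-numbered libraries came from the same culture. Library totals moved the median of all genes to -0.15 in MAflox and -0.13 in MATIP cells, and members' medians to -0.63 and -1.31. The difference call was unchanged under all 15 alternatives for 28 of the 35 members called. Depth limits Hspa1a, Hspa1b and Hspb1, which had at most 3.04 CPM in any library. No value could be had for the difference from the compared libraries alone, since it uses all 8.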
